A study of Mus musculus with 36 samples.

Results

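DFMO-treated non-pathogenic Th17 cells (Th17n) were compared with vehicle-treated induced regulatory T cells (iTreg) across all genes, to measure how far inhibited Th17n cells still lay from regulatory cells that never met the inhibitor. The labels alone defined the 2 groups. Each held 3 libraries, 1 from each of 3 wild-type C57BL/6 mice, and each library was sequenced in 2 runs whose estimated counts were summed, so that 12 of the 36 samples of the series entered the comparison. Both groups started from naive CD4+ cells sorted from spleen, both were activated with plate-bound antibodies to CD3 and CD28 at 1 µg/ml each, and both received TGF-beta 1 at 2 ng/ml. DFMO Th17n cells also received IL-6 at 25 ng/ml and 100 µM DFMO. Vehicle iTreg cells received neither, so the groups differ in a cytokine and in an inhibitor at the same time. Live cells were sorted at 68 h and full-length RNA libraries were made from them. Vehicle Th17n cells (IL-6 and TGF-beta 1 without DFMO) and DFMO iTreg cells are given beside the 2 groups where they place a value, and DFMO Th17p cells (pathogenic Th17 conditions, with IL-6 at 25 ng/ml, IL-1b at 20 ng/ml and IL-23 at 20 ng/ml but no TGF-beta 1) stand as the other Th17 lineage under the inhibitor. All are mixed cultures of differentiating cells, so that a lower level in a library can be fewer cells with the transcript or less of it per cell, which bulk RNA cannot tell apart.

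DFMO (difluoromethylornithine) blocks ornithine decarboxylase, the enzyme encoded by Odc1 that makes putrescine, from which the cell builds the polyamines spermidine and spermine. Polyamines serve translation, partly through hypusine, a modified residue that spermidine donates to the translation factor eIF5A. Th17 cells secrete IL-17 and arise when IL-6 signals through STAT3 together with TGF-beta. Induced regulatory cells arise from the same naive cells when TGF-beta acts without IL-6, and they depend on the transcription factor Foxp3. The 2 fates therefore share a cytokine and part at IL-6. DFMO acts on an enzyme's activity, so no transcript level in these libraries measures how well it was inhibited.

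Levels are given in CPM, counts scaled to library size with a correction for composition, for animals 1, 2 and 3 in that order. Differences are on the log2 scale with ± a standard error (SE), for 3 animals a group. The SE was computed as the absolute difference over the square root of edgeR's F statistic, from the fit of all 18 libraries. The 95% intervals of log2 differences were built from it. A positive value means a higher level in DFMO Th17n cells than in vehicle iTreg cells unless another pair is named. A gene is called, and written as higher or lower, where edgeR's quasi-likelihood test gave an adjusted p below 0.05, with Benjamini-Hochberg adjustment over 11526 genes. The 6 libraries compared held 8678959 to 11378047 estimated counts. Listed genes took a share of the TPM scale of 76.9% to 78.0% in DFMO Th17n and 72.4% to 75.1% in vehicle iTreg libraries, and its part in the results was not tested. All values for vehicle Th17n cells against vehicle iTreg cells rest on the same iTreg libraries as the main comparison.

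Over all genes, the distance of DFMO Th17n cells from vehicle iTreg cells lay within the range of distances of vehicle Th17n cells from them. The distance between 2 libraries of 1 animal, taken as the root mean square difference of log2 CPM over the genes tested, was 1.07, 1.08 and 1.08 between DFMO Th17n and vehicle iTreg (mean 1.08 ± 0.003 SD, n = 3). Between vehicle Th17n and vehicle iTreg it was 1.14, 1.04 and 0.994 (mean 1.06 ± 0.073), a range that holds the former values. DFMO Th17n cells lay 1.04, 0.993 and 0.943 from vehicle Th17n cells and 1.05, 0.996 and 0.994 from DFMO iTreg cells. Animals of a group lay 0.538 to 0.615 apart in DFMO Th17n cells and 0.533 to 0.607 apart in vehicle iTreg cells. Each of the 3 distances between the 2 groups, taken within an animal, was thus larger than any distance between animals of 1 group. Distances between the groups across different animals were not taken. DFMO Th17p cells lay 1.06, 1.01 and 1.02 from vehicle iTreg cells.

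**Figure D1:**
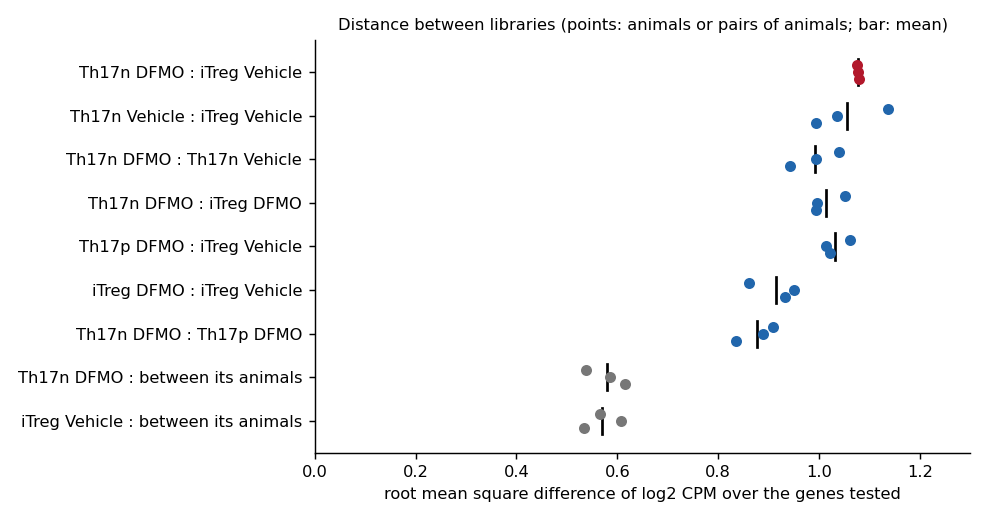
Distance between libraries on the x axis (root mean square difference of log2 CPM over the genes tested) for each pair of groups on the y axis. Points are the 3 animals, or the 3 pairs of animals for the 2 lowest rows, and bars are means. DFMO Th17n against vehicle iTreg (red, 1.07 to 1.08) lies inside the range of vehicle Th17n against vehicle iTreg (0.994 to 1.14), and animals of 1 group lie at 0.533 to 0.615.

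Of the 11526 genes tested, edgeR called 4454 (38.6%) between DFMO Th17n and vehicle iTreg cells, 2306 of them higher (20.0%) and 2148 lower (18.6%). The even split turns to the lower side once size is asked for, with 469 genes (4.07%) at least 2-fold higher and 970 (8.42%) at least 2-fold lower, where 2-fold is a log2 value of 1. Vehicle Th17n cells against the same iTreg libraries gave 4301 called genes (37.3%), 2180 higher (18.9%) and 2121 lower (18.4%), of which 768 (6.66%) were at least 2-fold higher and 632 (5.48%) at least 2-fold lower. DFMO Th17n against vehicle Th17n, which is also the test of whether a gene's gap to vehicle iTreg cells differed with the inhibitor, gave 5352 called genes (46.4%), 2626 higher (22.8%) and 2726 lower (23.7%). The split of the main comparison depends on scaling. Over all genes tested the median log2 difference was 0.01 with scaling factors. Without them it was -0.14 and the split 1521 higher to 2960 lower. On log2(TPM + 1) the median was -0.07 and the split 1540 higher to 2410 lower. Without animal 2 there were 1452 higher and 1544 lower calls. The shares of all genes, 20.0% higher and 18.6% lower, are the background for each count of list members, and a list with shares near them is not set apart by its count.

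The 12 largest increases and the 12 largest decreases were taken among called genes with a mean log2 CPM from 2 up over the 6 libraries. Genes under that level, such as Il22 (11.00) and Il10 (10.61), were left out even where the fitted gap was larger. The 12 largest increases were led by cytokines of the Th17 programme. Il21 and Il17a, with 2 and 2 counts in all vehicle iTreg libraries together, come first and are described with the Th17 genes, as are Il17f, Maf and Il9. Il24, a cytokine counted with the Th2 genes, was higher by 6.41. The others were Timp1, an inhibitor of matrix metalloproteinases that IL-6 induces (10.39), Lbp, a binding protein for bacterial lipopolysaccharide (8.63), Gcnt2, a glycosyltransferase (7.16), Pdpn, the surface glycoprotein podoplanin (7.03), Alpk2, a kinase (6.36), and Inhba, a subunit of activin (5.67). Timp1 stood at 595, 535 and 423 CPM against 0.4304, 0.184 and 0.506 CPM, with no overlap between the groups. Among the 12 largest decreases, 6 are in the list of interferon-response genes (Irf7, Ifit1, Usp18, Isg15, Isg20 and Dhx58). Mndal (-9.27), Ifi203 (-6.99) and PYDC3 (-6.17) belong to the Ifi200 cluster of near-identical genes and Trim30d (-5.34) has the near copy Trim30a, so that the split of reads among them is uncertain. The remaining 2 were Nkg7, a protein of cytotoxic granules (-5.87), and Idi2, an isopentenyl diphosphate isomerase (-5.78). Single animals moved some of these values by over 1.5 times on the linear scale. Without animal 1 Mndal was -13.03 and Isg20 -6.45, without animal 2 Gcnt2 was 10.14 and Lbp 7.86, and without animal 3 Lbp was 9.30, Ifi203 -7.76 and Il24 7.08. Fitted values that rest on 1 or 2 iTreg counts moved too. Il17a (10.56) was 13.47 without animal 1 and 9.13 without animal 3, and without animal 3 Il21 (12.43) was 14.97 and Il23r (5.25) 7.17.

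Foxp3 (chrX:7573644-7595245, plus strand, GRCm38) stood below vehicle iTreg level in DFMO Th17n cells and far above the level of vehicle Th17n cells. It measured 100.5, 115 and 76.3 CPM in DFMO Th17n and 516, 397 and 393 CPM in vehicle iTreg libraries. The groups did not overlap, and the difference was -2.16 ± 0.30 (adjusted p = 7.8e-05 in edgeR). Vehicle Th17n libraries held 11.1, 11.1 and 11.8 CPM, 5.26 below vehicle iTreg on the log2 scale, so that the gap was narrower by 3.09 ± 0.34 with DFMO (adjusted p = 7.4e-06 in edgeR). DFMO iTreg libraries held 483, 476 and 274 CPM.

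Regulatory transcription factors as a list had shares near the background, with 3 of 16 tested higher and 4 lower (20.0% and 18.6% over all genes) and a median of 0.07 against 0.01 over all genes. Gata3, the Th2 factor that regulatory cells also use, was 1.96, 2.38 and 4.62 CPM against 59.3, 82.9 and 104 CPM, a difference of -4.76 ± 0.28 (adjusted p = 2.5e-10 in edgeR). Ikzf2 (Helios) was 6.91, 14.8 and 9.603 CPM against 20.98, 35.3 and 42.5 CPM (-1.65 ± 0.34, adjusted p = 0.0011 in edgeR). Both were lower in every DFMO Th17n library than in any vehicle iTreg library. Ikzf4 (Eos) did not pass, at 0.05, and neither did Foxo1 (0.26), Runx1 (0.24), Stat5a (0.04) and Stat5b (-0.16), of which Runx1 was called without animal 1 (adjusted p = 0.044 in edgeR). Bach2 (0.97) and Satb1 (1.16), regulators of lymphocyte differentiation, were higher.

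Of 26 tested surface and effector genes of regulatory cells, 8 were higher and 9 lower (20.0% and 18.6% over all genes; median -0.36), and without animal 2 the counts were 5 and 6. Lrrc32, the GARP receptor that holds latent TGF-beta on the cell surface, was 15.8, 16.3 and 14.5 CPM against 104, 62.5 and 66.2 CPM (-2.32 ± 0.20, adjusted p = 2.9e-08 in edgeR). Tnfrsf9, which encodes the receptor 4-1BB, was 19.6, 30.2 and 43.2 CPM against 224, 298 and 362 CPM (-3.24 ± 0.25, adjusted p = 3.3e-07 in edgeR). Neither gene's groups overlapped. Vehicle Th17n libraries held 775, 584 and 659 CPM of Tnfrsf9, more than vehicle iTreg libraries, and DFMO against vehicle Th17n gave -4.43. Also lower were Tigit (-2.69), Ebi3 (-1.66), Swap70 (-1.41) and Tnfrsf18 (-1.32), where Tigit is an inhibitory receptor, Ebi3 a subunit of IL-27 and IL-35, and Tnfrsf18 the receptor GITR. Nrp1 was lower at -1.03 (adjusted p = 0.038 in edgeR) and lost its call without animal 1, 2 or 3 (adjusted p = 0.063, 0.15 and 0.073) and without the low-count filter (0.057).

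The receptors that tie regulatory cells to IL-2 and to B7 ligands were above iTreg level. Ctla4, the inhibitory receptor for B7, was 378, 313 and 576 CPM against 189.6, 199 and 234 CPM, higher by 1.02 ± 0.16 (adjusted p = 0.00014 in edgeR) with no overlap. Il2rb, the beta chain of the IL-2 receptor, was higher by 1.09 ± 0.09. Il2ra, its alpha chain CD25, was higher by 0.50 ± 0.10 and lost its call without animal 2 (adjusted p = 0.067 in edgeR). Il10, an anti-inflammatory cytokine, was 21.1, 25.2 and 10.1 CPM against 0 counts in every vehicle iTreg library, at least 199-fold higher against a floor of 3 counts over the group. Socs2, a feedback inhibitor downstream of STAT5, stood at 424, 435 and 294 CPM against 414, 363 and 339 CPM, overlapping levels (0.05 ± 0.28), while vehicle Th17n libraries held 72.6, 64.4 and 89.3 CPM. Genes that did not pass also include Tnfrsf4 (-0.16), Entpd1 (-0.79), Nt5e (-0.45) and Icos (-0.23). Of these, Icos had an adjusted p of 0.052 in edgeR and was called in 7 alternatives, at adjusted p = 0.0023 without scaling factors, 0.015 with the animal in the fit, 0.016 in limma on log2(TPM + 1), 0.037 with the 6 libraries alone, 0.039 in DESeq2, 0.041 without the low-count filter and 0.041 on run 2 alone.

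The transcription factors of the Th17 fate stayed above iTreg level. Of 17 tested, 11 were higher and 2 lower (20.0% and 18.6% over all genes), with a median of 0.70. Only 1 was lower on run 1 alone or without any 1 animal. Maf, the factor that drives Il10 and Il21 in Th17 cells, was 70.5, 66.6 and 74.3 CPM in DFMO Th17n and 1.08, 0.276 and 0.758 CPM in vehicle iTreg libraries, higher by 6.65 ± 0.57 (adjusted p = 4.1e-07 in edgeR) with no overlap. Vehicle Th17n libraries held 63.00, 49.2 and 36.6 CPM. Batf, an AP-1 factor that opens Th17 genes, was 112, 104 and 116 CPM against 52.9, 48.7 and 47.4 CPM (1.16 ± 0.12, adjusted p = 2.6e-07 in edgeR). Ahr, the aryl hydrocarbon receptor (2.13), Fosl2 (1.92), Irf4 (1.19), Ncoa1 (0.89), Hif1a (0.70), Junb (0.46) and Stat3 (0.45) were higher. Rora, a nuclear receptor, was higher by 0.97 and lost its call without animal 1 (adjusted p = 0.091 in edgeR) and with the 6 compared libraries fitted alone (0.055). The lower pair was Tead1 (-1.49, adjusted p = 0.051 in edgeR without animal 1) and Nfkbiz (-0.33, adjusted p = 0.2 without animal 2, 0.16 without animal 3 and 0.062 on run 1 alone).

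Il17a and Il17f, neighbouring genes for paired IL-17 cytokines on chromosome 1, were nearly unread in vehicle iTreg cells, and their promoters are shown because they mark the lineage that DFMO Th17n cells still expressed. The 250 bases before each start site, from RefSeq on GRCm38.p6, hold 1 match each to AGGTCA, the core of many nuclear receptor elements, searched on both strands (capitals). This motif occurs in 16.3% of 32851 promoter windows of 300 bases, and a match is a description of the sequence only. The Foxp3 windows were searched too, and 1 of them holds 2 matches and the other 0, so the motif is not particular to the Th17 pair. The motifs TTCNNNGAA (STAT) and CAGAC (SMAD), also searched, have 0 matches in the Il17a and Il17f windows.
Il17a, chr1:20730655-20730904, plus strand: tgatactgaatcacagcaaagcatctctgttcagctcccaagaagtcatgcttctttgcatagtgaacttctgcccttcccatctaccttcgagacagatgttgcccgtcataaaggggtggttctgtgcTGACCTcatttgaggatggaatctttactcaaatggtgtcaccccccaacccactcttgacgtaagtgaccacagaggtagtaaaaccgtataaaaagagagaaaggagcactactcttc
Il17f, chr1:20784271-20784520, minus strand: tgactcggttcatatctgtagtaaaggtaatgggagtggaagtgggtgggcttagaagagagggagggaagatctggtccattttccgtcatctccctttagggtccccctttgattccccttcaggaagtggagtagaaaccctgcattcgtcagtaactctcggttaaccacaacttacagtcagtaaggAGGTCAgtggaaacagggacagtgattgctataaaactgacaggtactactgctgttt
Il17a was 83.9, 41.8 and 211 CPM in DFMO Th17n libraries, 3526 counts in all against 2 in the 3 vehicle iTreg libraries, a ratio of 1819.7 (95% counting interval 503 to 15032). Il17f was 521, 548 and 886 CPM against 1.83, 0.644 and 1.601 CPM, higher by 8.91 ± 0.58 (adjusted p = 1e-07 in edgeR). Every DFMO Th17n library lay above every iTreg library for both genes, while Il17a spanned 41.8 to 211 CPM within the DFMO Th17n group. Vehicle Th17n libraries held 166, 226 and 251 CPM of Il17a and 855, 595 and 771 CPM of Il17f. Between DFMO and vehicle Th17n cells Il17f differed by -0.18 ± 0.36 (adjusted p = 0.7 in edgeR) and Il17a by -0.94 ± 0.47 (adjusted p = 0.12).

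Most other cytokines and receptors of Th17 cells were above iTreg level too. Of 20 tested, 14 were higher and 1 lower (20.0% and 18.6% over all genes), and 12 and 2 without animal 3. The median of 4.61 is the same with the 2 genes of 0 iTreg counts set at their bounds. On log2(TPM + 1) it was 3.58. In vehicle iTreg cells 9 of the tested members averaged under 1 CPM, against 1 in DFMO Th17n cells. The size of such gaps, and of the median, therefore rests on few iTreg counts. Il21, which sustains the lineage, was 474, 339.6 and 419 CPM against 0, 0 and 0.169 CPM, a ratio of counts of 6496 (95% counting interval 1798 to 53646). Il9, a cytokine that TGF-beta induces together with other signals, was 1915, 1552 and 1494 CPM against 34.97, 21.5 and 29.99 CPM (5.84 ± 0.29, adjusted p = 6.3e-09 in edgeR). Il9 was also 580.2, 559 and 498 CPM in DFMO iTreg and 202, 185 and 184 CPM in vehicle Th17n libraries, so that DFMO Th17n cells stood above the other 3 groups named. Ccl20, the ligand of Ccr6, was 61.2, 45.1 and 62.1 CPM against 1.61, 1.195 and 3.45 CPM (4.72 ± 0.75), whereas Ccr6 itself did not pass (-0.05). Il23r, the receptor for IL-23, had 50 against 1 counts, a ratio of 51.6 (95% counting interval 8.85 to 2079). Il22 was 6.11, 2.56 and 64.4 CPM against 0 counts, at least 273-fold higher, and lost its call without animal 1 (adjusted p = 0.075 in edgeR), without animal 3 (0.16) and with the 6 libraries fitted alone (0.2). The 1 lower member was Il1r2, the decoy receptor for IL-1 (-2.94). The receptor subunits Il6ra (0.17) and Il6st (0.32) did not pass.

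Genes that mark non-pathogenic Th17 cells were higher in 7 of 9 tested cases with 0 lower (20.0% and 18.6% over all genes). The median was 4.49, and the counts were the same in every alternative run. The higher genes include Cd5l, a regulator of lipid metabolism in Th17 cells (4.49), beside Il9, Il10, Maf and Ahr. Genes that mark pathogenic Th17 cells split, with 6 higher and 5 lower of 20 tested (20.0% and 18.6% over all genes); the counts were 3 and 5 with the 6 libraries alone and 3 and 3 without animal 2. The lower members were Gzmb (granzyme B, -4.94), the chemokine receptor Cxcr3 (-2.10), Ccl5, the inhibitory receptor Lag3 (-1.53) and the IL-12 signal carrier Stat4 (-1.32). Lag3 and Stat4 lost their calls without animal 2 (adjusted p = 0.21 and 0.06 in edgeR), and Lag3 also without animal 3 (0.12) and with the 6 libraries alone (0.15). Ccl5, a chemokine of effector and CD8 T cells, was lower by 5.37, reached -10.71 without animal 2, and lost its call without animal 3 (-4.44, adjusted p = 0.059 in edgeR). Lta, which encodes lymphotoxin alpha, was higher (1.37).

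**Figure D2:**
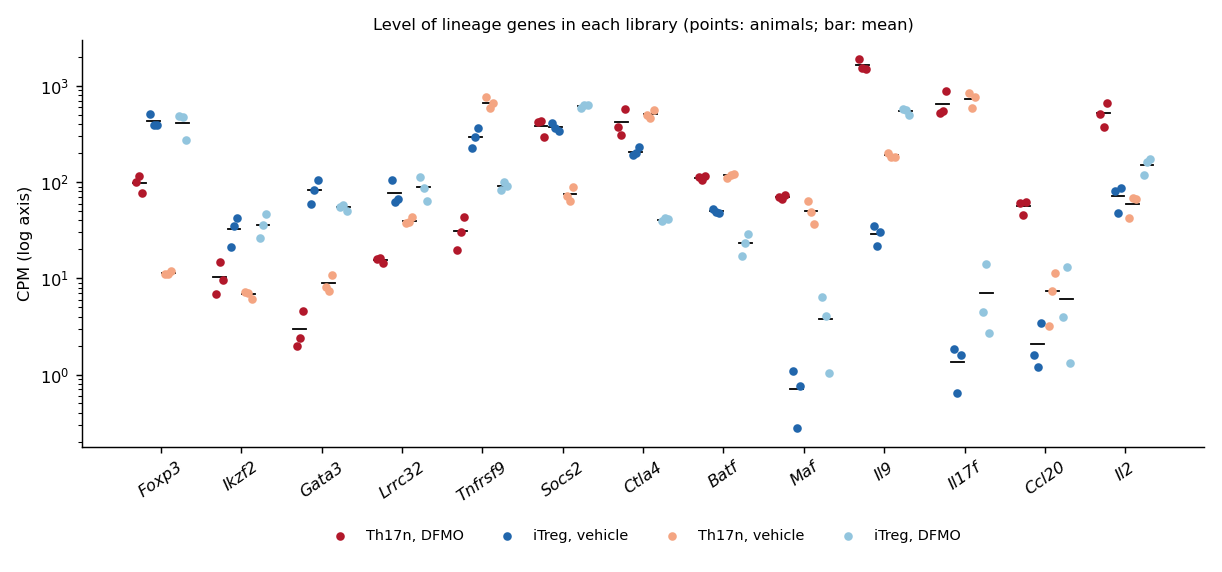
Level in each library on the y axis (CPM, log axis) of 13 lineage genes on the x axis in 4 groups of 3 animals. Points are animals and bars are group means. Foxp3 in DFMO Th17n cells (76.3 to 115 CPM, red) lies between vehicle Th17n (11.1 to 11.8) and vehicle iTreg cells (393 to 516), Socs2 overlaps vehicle iTreg cells, and Maf, Il17f and Ccl20 lie far above vehicle iTreg cells.

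Th1 genes were mostly below iTreg level. Of 14 tested, 2 were higher and 9 lower (20.0% and 18.6% over all genes), with a median of -1.27. Every alternative gave 1 higher and 8 to 11 lower except the replicate block, which gave 2 and 9. Eomes, a T-box factor of cytotoxic and memory cells, was lower by 4.28 (-5.15 without animal 2 and -3.50 without animal 3), Il18r1, a receptor chain for IL-18, by 2.64, and Ifngr1, a receptor chain for interferon gamma, by 1.23. Tbx21, the Th1 master factor, differed by -0.96 ± 0.43 (adjusted p = 0.093 in edgeR) and was called by DESeq2 (adjusted p = 0.04) and without animal 1 (0.045). Il12rb1, shared by the receptors for IL-12 and IL-23, was higher (1.77). Il12rb2, the chain private to IL-12, did not pass at -0.89 but was called on run 2 alone (adjusted p = 0.038 in edgeR) and without animal 1 (0.04), while its vehicle Th17n level had been 2.49 from vehicle iTreg.

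Of 8 tested Th2 genes, 3 were higher and 2 lower (20.0% and 18.6% over all genes), the latter being Gata3 and Stat6 (-0.52). Il24 (6.41) and Il4ra, the receptor for IL-4 (1.26), were higher. Follicular helper genes counted 7 higher and 2 lower of 13 tested, against the same shares of all genes. Btla (1.01), Pdcd1 (1.38) and Cd200 (1.65), all inhibitory receptors or ligands, were among the higher. Co-inhibitory receptors and associated genes counted 6 higher and 3 lower of 10 tested (6 and 1 without animal 2), again against these shares. Procr (4.60) and Pdpn (7.03) had the largest increases.

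Interferon-response genes had the largest share called in 1 direction among the 38 lists. Type I interferon acts through factors such as STAT2 and IRF9, which bind the interferon-stimulated response element (ISRE) and switch on antiviral genes. Of 40 tested members, 0 were higher and 39 lower, against 18.6% of all genes lower, and the median was -3.14, unchanged when the 3 genes with 0 counts in DFMO Th17n cells were set at their bounds. Between 36 and 39 members were lower in every alternative run. Vehicle Th17n cells against the same iTreg libraries gave 1 higher and 33 lower with a median of -1.60, and DFMO against vehicle Th17n cells gave 1 higher and 24 lower. The summed level of the list was 1813 to 1873 CPM in DFMO Th17n, 2816 to 2922 in vehicle Th17n, 2268 to 2714 in DFMO iTreg and 4773 to 5787 in vehicle iTreg libraries. In DFMO Th17n cells 12 of the tested members averaged under 1 CPM, and in vehicle iTreg cells 0 did.

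The promoters of Isg15, a ubiquitin-like antiviral protein, of Ifit1, which binds viral RNA, and of Ifit3 are shown. They were chosen because they carry the element of this pathway and the transcripts of their genes were close to absent in DFMO Th17n cells. Capitals mark the ISRE core GAAANNGAA on either strand, in the 250 bases before the start site (RefSeq, GRCm38.p6). Each window holds 3 matches, which overlap in Isg15 and partly in Ifit1.
Isg15, chr4:156200819-156201068, minus strand: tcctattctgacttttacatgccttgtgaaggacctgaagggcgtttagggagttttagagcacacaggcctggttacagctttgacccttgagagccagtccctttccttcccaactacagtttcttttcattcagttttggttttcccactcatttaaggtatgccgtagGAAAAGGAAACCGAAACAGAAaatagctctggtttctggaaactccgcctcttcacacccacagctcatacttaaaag
Ifit1, chr19:34640639-34640888, plus strand: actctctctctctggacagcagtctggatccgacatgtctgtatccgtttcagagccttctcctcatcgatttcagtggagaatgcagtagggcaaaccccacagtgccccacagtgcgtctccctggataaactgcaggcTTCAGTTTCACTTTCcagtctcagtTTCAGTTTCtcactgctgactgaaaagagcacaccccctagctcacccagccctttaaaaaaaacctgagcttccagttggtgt
Ifit3, chr19:34583279-34583528, plus strand: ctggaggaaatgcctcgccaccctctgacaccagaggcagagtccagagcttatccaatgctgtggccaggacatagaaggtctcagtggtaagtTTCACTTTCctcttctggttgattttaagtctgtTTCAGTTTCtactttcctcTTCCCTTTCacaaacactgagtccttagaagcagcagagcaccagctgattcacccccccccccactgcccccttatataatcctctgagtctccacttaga
The core was present in 18 of 36 promoter windows of the 29 list members that matched RefSeq (50%) and in 8.56% of all 32851 windows of 300 bases from 27025 genes. The search for this element was added after the values were seen. Irf7, Oasl2, Isg20 and Xaf1, all lower, held no match in their windows.

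Isg15 was 1.96, 1.24 and 0.634 CPM in DFMO Th17n and 53.5, 73.1 and 106 CPM in vehicle iTreg libraries, lower by 5.96 ± 0.50 on the log2 scale (adjusted p = 4e-07 in edgeR). Ifit1 was 1.04, 0.971 and 0.0906 CPM against 40.1, 61.5 and 55.7 CPM (-6.25 ± 1.02, adjusted p = 0.00033 in edgeR). Without animal 1 Isg15 was -6.56, and without animal 3 Isg15 was -5.33 and Ifit1 -5.65. For both, vehicle Th17n libraries lay between the 2 groups, at 15.99, 23.4 and 17.2 CPM of Isg15 and 14.8, 36.5 and 22.7 CPM of Ifit1. Ifit3 had 0 counts in the 3 DFMO Th17n libraries against 23.9, 18.5 and 15.5 CPM, at least 196-fold lower against a floor of 3 counts over the group; its call was lost without animal 1 (adjusted p = 0.067 in edgeR) and without animal 2 (0.063). Irf7, the factor that amplifies interferon production, was 0.461, 0.706 and 0.453 CPM against 71.3, 79.5 and 112 CPM (-7.29 ± 0.73, adjusted p = 4.1e-06 in edgeR). Vehicle Th17n libraries held 12.7, 14.5 and 11.6 CPM of it, and DFMO against vehicle Th17n gave -4.53. No DFMO Th17n library overlapped an iTreg library for these 4 genes.

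Oas1a and Oas2, sensors of double-stranded RNA, had 0 counts in DFMO Th17n libraries and were at least 222-fold and 43.6-fold lower. Oas1a has near-identical copies, as have Iigp1 and the Gbp genes, and its counts carry that uncertainty. With 1 to 3 counts in DFMO Th17n cells, the ratio of vehicle iTreg to DFMO Th17n counts was 498 (95% counting interval 138 to 4117) for Rtp4, 286 (95% counting interval 50.9 to 11326) for the antiviral GTPase Mx1, 163 (95% counting interval 55.4 to 792) for Ifi44 and 86.2 (95% counting interval 29.2 to 421) for Rsad2, which encodes viperin. These intervals cover counting error only. The pathway's own signal carriers were lower by less. Stat2 was 28.2, 21.98 and 25.3 CPM against 76.6, 89.4 and 118 CPM (-1.92 ± 0.17) and Irf9 differed by -1.02 ± 0.11, both called in edgeR (adjusted p = 2.1e-08 and 3.1e-07).

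List members that process antigen include the immunoproteasome subunits Psmb9 (-2.17) and Psmb8 (-1.03) and the peptide transporter Tap1 (-1.30), each lower. A few members did not move the same way between the 2 Th17n groups. Ifi27 was -2.06 in DFMO Th17n but 0.49 in vehicle Th17n cells relative to vehicle iTreg. Iigp1 was -4.62 and -8.50, so that it was higher in DFMO than in vehicle Th17n cells by 3.88. Gbp2 was the member that did not pass (-0.38, adjusted p = 0.31 in edgeR; 0.026 without animal 2). Calls of Oasl1 without animal 3 (adjusted p = 0.091 in edgeR), and of Gbp3 and Zbp1 without animal 1 (0.087 and 0.053), were lost.

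**Figure D3:**
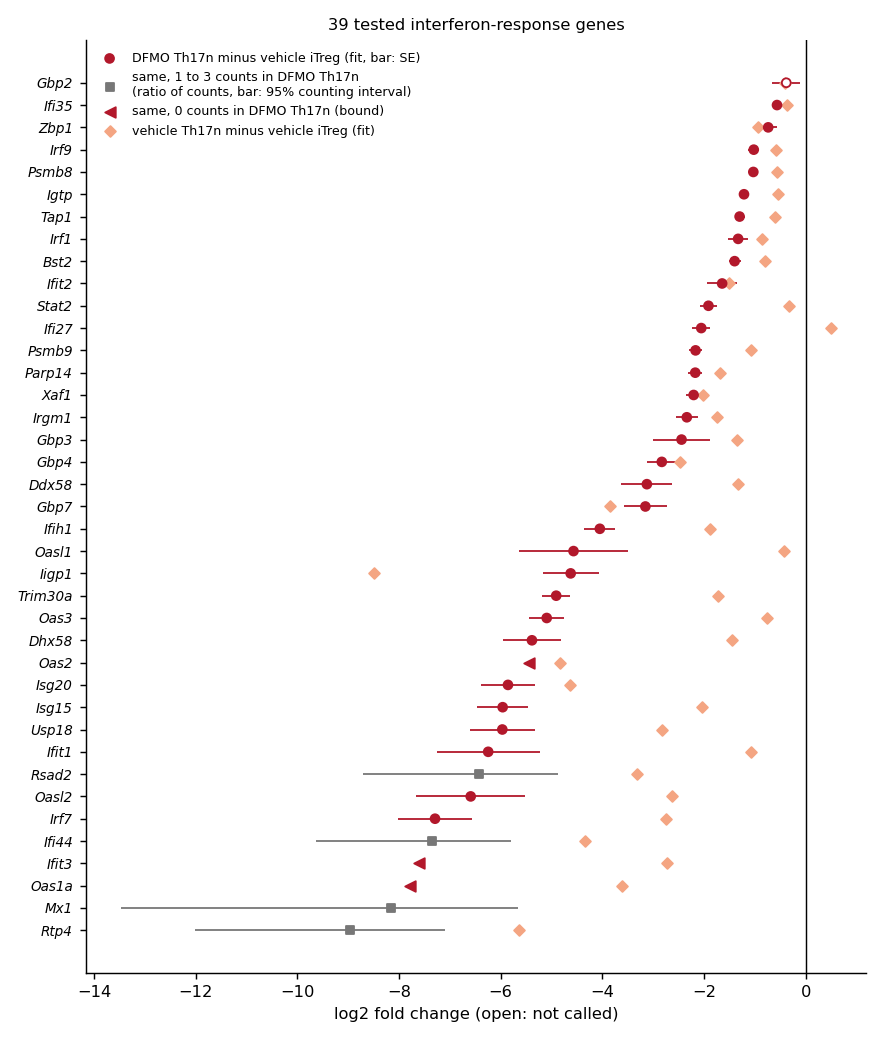
Log2 fold change on the x axis of 39 of the tested interferon-response genes on the y axis. Red circles with SE bars are DFMO Th17n minus vehicle iTreg from the fit (open: not called), triangles are bounds for genes with 0 counts in DFMO Th17n cells, grey squares are ratios of counts with 95% counting intervals for 1 to 3 counts, and diamonds are vehicle Th17n minus vehicle iTreg (not drawn for Mx1, which had 0 counts there). All 39 symbols of the main comparison lie left of 0, and Gbp2 was not called.

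Several polyamine genes were called between the 2 groups, and Odc1 was not. Odc1 was 184, 184 and 206 CPM in DFMO Th17n and 151, 165 and 172 CPM in vehicle iTreg libraries, a difference of 0.23 ± 0.13 that did not pass (adjusted p = 0.18 in edgeR). Amd1, which makes the aminopropyl donor for spermidine and spermine, was 399, 445 and 429.6 CPM against 156, 154 and 145 CPM (1.48 ± 0.08, adjusted p = 2.5e-11 in edgeR). Amd1 was 109, 125 and 126 CPM in vehicle Th17n and 569.5, 647 and 530.4 CPM in DFMO iTreg libraries, so that both DFMO groups lay above both vehicle groups. Of 15 tested synthesis and uptake genes, 4 were higher and 3 lower (median 0.23), near the 20.0% and 18.6% of all genes. With the animal in the fit the counts were 6 and 3, and without animal 2 they were 3 and 1. Mat2a, which makes S-adenosylmethionine, was higher (0.82) and Slc12a8, a transporter, lower (-2.61). Srm, spermidine synthase, was 81.9, 54.3 and 239 CPM against 30.4, 33.7 and 89.1 CPM, with animal 3 high in both groups. It differed by 1.29 ± 0.63 without a call (adjusted p = 0.13 in edgeR) and was called with the animal in the fit (adjusted p = 0.0037) and without animal 3 (0.0017). Sms, spermine synthase, did not pass (-0.09; without scaling factors the adjusted p was 0.041).

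The inhibitors that target ornithine decarboxylase for destruction were low. Oaz1, antizyme 1, was 439, 421 and 455 CPM against 1145, 1045 and 1069 CPM (-1.31 ± 0.07, adjusted p = 1.3e-11 in edgeR), and Oaz2, antizyme 2, was 9.104, 12.7 and 9.88 CPM against 55.3, 56.7 and 57.2 CPM (-2.41 ± 0.17, adjusted p = 3.7e-10). Neither overlapped, and vehicle Th17n cells differed from vehicle iTreg cells in Oaz1 by -0.02 ± 0.07, which did not pass. Azin1, the antizyme inhibitor, was 239.6, 238 and 246 CPM against 110.4, 96.9 and 99.8 CPM, higher by 1.24 ± 0.10 (adjusted p = 4.1e-09 in edgeR). In the hypusine branch, Eif5a (0.71) and Dohh (0.54), which completes the hypusine residue, were higher. Dhps, which attaches the spermidine part, was higher by 0.39 and lost its call without scaling factors (adjusted p = 0.061 in edgeR), in limma on log2(TPM + 1) (0.051) and without animal 3 (0.083). Over breakdown, antizyme and hypusine genes, 3 of 9 tested were higher and 3 lower (20.0% and 18.6% over all genes).

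Among the enzymes that break polyamines down, Smox, spermine oxidase, was 38.8, 30.7 and 56.4 CPM against 33.5, 33.4 and 36.4 CPM and did not pass (0.29 ± 0.23), whereas vehicle Th17n libraries held 201, 208 and 234 CPM. Its gap to vehicle iTreg cells thus differed by -2.35 with DFMO (adjusted p = 1.1e-06 in edgeR). Sat1, the acetyltransferase that marks polyamines for export, was 275, 34.1 and 335 CPM against 269.8, 26.9 and 296 CPM, with animal 2 low in both groups (0.12 ± 1.36). Paox, a polyamine oxidase, was lower (-0.76).

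Ribosome biogenesis genes were mostly above vehicle iTreg level in DFMO Th17n cells and mostly below it in vehicle Th17n cells. Of 33 tested, 25 were higher and 0 lower (median 0.59), against 20.0% of all genes higher. Relative to the same iTreg libraries, vehicle Th17n cells gave 3 higher and 21 lower, and DFMO against vehicle Th17n gave 31 higher and 0 lower. The count of higher members was 19 without scaling factors, 19 on log2(TPM + 1) and 20 without animal 2. The summed level of the list was 11160 to 12102.5 CPM in DFMO Th17n and 11593 to 12733 CPM in DFMO iTreg libraries. It was 8263 to 8680 CPM in vehicle Th17n and 8526 to 9031 CPM in vehicle iTreg libraries, so that both DFMO groups lay above both vehicle groups. Rrp12, a factor for export of ribosomal subunits, was 139, 147 and 114 CPM against 38.2, 34.2 and 34.7 CPM (1.90 ± 0.13, adjusted p = 3.5e-10 in edgeR). Nop56, a core protein of the complexes that methylate ribosomal RNA, was 608, 557 and 521 CPM against 412, 412 and 378 CPM (0.49 ± 0.09, adjusted p = 0.00012 in edgeR), with vehicle Th17n libraries lowest at 213, 206 and 251 CPM. Subunits of RNA polymerase I were higher too, as Polr1c (0.83) and Polr1b (0.79) show, and so were Pno1 (1.15), Rrp9 (1.04), Dkc1 (0.78), Nop58 (0.59) and nucleolin (Ncl, 0.44). Members that did not pass include Npm1 (0.12), Pes1 (0.10) and Tcof1 (-0.10).

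**Figure D4:**
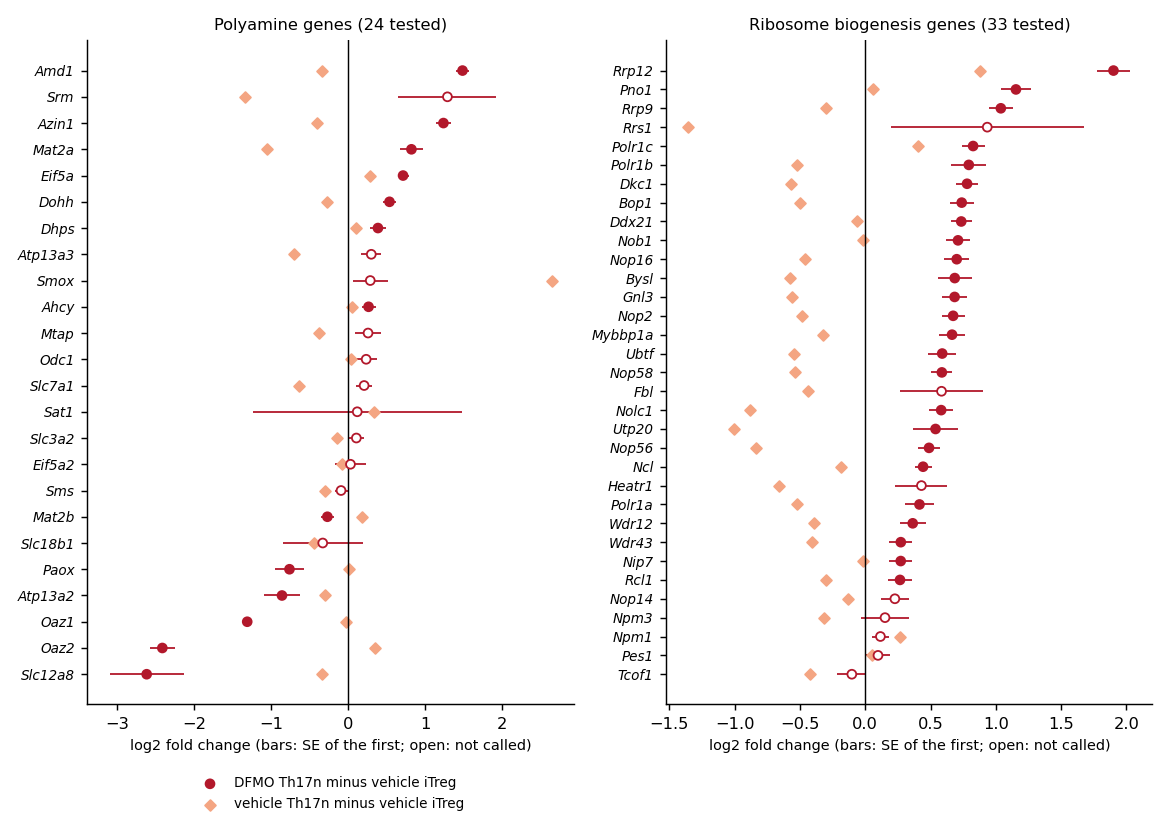
Log2 fold change on the x axis of 24 polyamine genes (left) and 33 ribosome biogenesis genes (right) on the y axis. Circles with SE bars are DFMO Th17n minus vehicle iTreg (open: not called) and diamonds are vehicle Th17n minus vehicle iTreg. Amd1 (1.48) and Azin1 (1.24) lie right of 0, Oaz1 (-1.31) and Oaz2 (-2.41) left of it, and 25 of the 33 ribosome biogenesis genes are called higher.

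Most glycolysis and hypoxia genes tested were above vehicle iTreg level in vehicle Th17n cells. In DFMO Th17n cells their shares called higher did not exceed the 20.0% of all genes. Of 24 tested glycolysis genes, 3 were higher and 9 lower in the main comparison (20.0% and 18.6% over all genes). Vehicle Th17n against vehicle iTreg gave 15 higher and 0 lower (18.9% and 18.4% over all genes). DFMO against vehicle Th17n gave 1 higher and 19 lower (22.8% and 23.7% over all genes). The main counts were 5 and 6 without animal 1 and 3 and 5 without animal 2. Aldoc, an aldolase, was 5.07, 4.68 and 7.88 CPM against 53.2, 60.04 and 52.9 CPM in vehicle iTreg and 212, 184 and 178 CPM in vehicle Th17n libraries, so that it lay on opposite sides of iTreg level in the 2 Th17n groups (-3.23 ± 0.24 and 1.79 ± 0.20, both called in edgeR at adjusted p = 2e-08 and 2.5e-06). Also lower were Eno2 (-1.17), Pdk1 (-1.01), Pfkm (-0.99) and Gpi1 (-0.90), of which Pdk1 restrains entry of pyruvate into mitochondria. Hk2, hexokinase 2, was higher (1.10), and Gapdh did not pass (-0.05).

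Hypoxia-response genes counted 4 higher and 5 lower of 26 tested, near the 20.0% and 18.6% of all genes. Vehicle Th17n against vehicle iTreg gave 17 higher and 0 lower, and DFMO against vehicle Th17n gave 0 higher and 20 lower. The main counts were 5 and 3, 3 and 3 and 5 and 8 without animals 1, 2 and 3 in turn and 3 and 8 with the 6 libraries alone. Adm, the peptide adrenomedullin, was lower (-3.31), and Egln3, an oxygen sensor, was higher (1.61). Ero1l, an oxidase of protein folding, did not pass (-0.22; adjusted p = 0.038 in edgeR with the 6 libraries alone), after 1.80 in vehicle Th17n cells.

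Genes of the amino acid response that ATF4 controls were below iTreg level in 16 of 37 tested cases and above it in 2 (18.6% and 20.0% over all genes); without animal 3 the counts were 11 lower and 1 higher. Atf4 itself did not pass (0.01). Phgdh, the first enzyme of serine synthesis, was 650.2, 729 and 606 CPM against 1266, 1309 and 1262 CPM (-0.95 ± 0.09, adjusted p = 2.6e-08 in edgeR), and vehicle Th17n libraries held 611, 720.4 and 764 CPM. Cth, which makes cysteine, was lower by 2.82, Pycr1, of proline synthesis, by 1.43, and the stress regulators Trib3 and Ddit3 by 1.36 and 1.06. Asns, asparagine synthetase, was lower by 0.70.

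Of 29 tested cholesterol and fatty acid synthesis genes, 11 were lower and 1 higher (18.6% and 20.0% over all genes). Without animal 1 the counts were 10 lower and 3 higher, and without animal 2 8 and 0. Hmgcs1, at the entry to the mevalonate pathway, was 214, 146 and 126 CPM against 519.8, 346 and 359 CPM (-1.33 ± 0.25, adjusted p = 0.00078 in edgeR), with no overlap. Also lower were Nsdhl (-1.12), Dhcr7 (-1.11) and Idi1 (-0.77), enzymes of later steps. The regulator Srebf2 (-0.01) did not pass. The unfolded protein list counted 10 higher and 1 lower of 22 tested (20.0% and 18.6% over all genes; 7 and 2 without animal 1). Its higher members include Ssr1, a subunit of the translocon-associated complex (0.68), and the chaperones Calr (0.48), Canx (0.42) and Hspa5 (0.40). The lower member was Xbp1, a factor of that response (-0.69).

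Only the Th17n culture received IL-6. Of 19 tested IL-6 and STAT3 targets, 9 were higher and 3 lower (20.0% and 18.6% over all genes), with a median of 0.32. Socs3, the feedback inhibitor of IL-6 signalling, was 250.4, 238 and 216 CPM against 33.5, 33.7 and 41.1 CPM (2.70 ± 0.11, adjusted p = 2.1e-13 in edgeR). Vehicle Th17n libraries held 559, 521 and 503 CPM, more than either. Bcl3 was higher (0.68) and the kinase Pim2 lower (-1.29).

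Both cultures received TGF-beta 1. Of 25 tested genes of its pathway and targets, 10 were higher in DFMO Th17n cells and 0 lower (20.0% and 18.6% over all genes; median 0.33). Id2 and Id1, inhibitors of E-protein factors, were 103, 96.1 and 119 CPM against 21.9, 14.4 and 11.6 CPM (2.74 ± 0.16, adjusted p = 9.4e-11 in edgeR) and 44.5, 34.96 and 32.8 CPM against 7.42, 9.38 and 6.91 CPM (2.24 ± 0.25, adjusted p = 4.8e-07). The groups did not overlap for either. Smad3, the signal carrier (2.13), Klf10 (1.72), Furin, the protease that matures TGF-beta (1.61), and the feedback inhibitors Bambi (1.46), Pmepa1 (1.41) and Ski (0.83) were higher. The receptors Tgfbr1 (-0.13) and Tgfbr2 (-0.25) and the carriers Smad2 (0.14) and Smad4 (0.07) did not pass, although Tgfbr2 had an adjusted p of 0.046 in edgeR without scaling factors. Tgfb3, a ligand that Th17 cells make, was 0.2305, 0.353 and 0.815 CPM against 0.753, 0.736 and 1.26 CPM and did not pass, whereas vehicle Th17n libraries held 54.6, 33.6 and 35.1 CPM.

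Il2 was the early activation gene furthest above iTreg level. It was 514, 377 and 668 CPM against 80.8, 47.5 and 87.5 CPM (2.85 ± 0.31, adjusted p = 9.9e-06 in edgeR), and vehicle Th17n libraries held 42.9, 68.3 and 66.6 CPM, which overlapped the vehicle iTreg range. Tnf was 292, 252 and 300.1 CPM against 80.05, 80.6 and 85.5 CPM (1.78 ± 0.10), and Egr2, a factor induced by the antigen receptor, differed by 1.99 ± 0.19 (adjusted p = 2.1e-11 in edgeR and 3.8e-08). Over early response genes of the T cell receptor, 5 of 20 tested were higher and 3 lower (5 and 5 on log2(TPM + 1)), near the background, the latter including Rel (-1.45) and Nr4a3 (-1.79). Fos (0.20), Egr1 (0.24) and Myc (-0.08) did not pass. IL-2 and STAT5 targets counted 7 higher and 2 lower of 18 tested (20.0% and 18.6% over all genes), with Cish (0.47) and Ccnd3 (0.79) among the former and Bcl2 (-0.60) and Ccnd2 (-0.56) the latter. Of 23 tested TNF family and co-stimulation genes, 8 were higher and 9 lower (20.0% and 18.6% over all genes). Besides Tnfrsf9 and Tnfrsf18, the lower ones include Cd80 (-4.10), Tnfsf8 (-3.10) and Cd27 (-1.78), and the higher ones Cd28 (0.65) and Tnfrsf25 (1.17).

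Naive and memory cell genes tested numbered 18, with 9 lower and 3 higher (18.6% and 20.0% over all genes; 9 and 5 with DESeq2). Tcf7, the factor TCF-1, was 52.1, 56.8 and 45.8 CPM against 104, 105 and 101 CPM (-1.01 ± 0.12, adjusted p = 9e-07 in edgeR), while its partner Lef1 did not pass (0.06). Homing genes counted 5 higher and 7 lower of 26 tested, near the 20.0% and 18.6% of all genes, with 3 and 5 without animal 1 and 4 and 4 without animal 2. Itga4, the alpha 4 integrin, was lower by 2.66 and Gpr15, a receptor for homing to the colon, higher by 3.31.

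Counts of cell cycle genes on either side of iTreg level depended on scaling. Of 37 tested S phase genes, 14 were higher and 5 lower, against 5 and 8 without scaling factors, 4 and 7 on log2(TPM + 1), 4 and 4 without animal 2, 7 and 2 without animal 3, 14 and 2 without animal 1 and 12 and 3 on run 2 alone. In vehicle Th17n against vehicle iTreg, 0 were higher and 28 lower. Rrm2, a subunit of ribonucleotide reductase, was 642, 674 and 669 CPM against 524, 368 and 369 CPM in vehicle iTreg and 218, 214 and 254 CPM in vehicle Th17n libraries (0.66 ± 0.11 in the main comparison). G2 and M phase genes counted 2 higher and 8 lower of 38 tested (1 and 16 without scaling factors, 4 and 9 with the animal in the fit, and 2 and 5, 1 and 8 and 2 and 5 without animals 1, 2 and 3). The background for these lists and the next is again 20.0% higher and 18.6% lower.

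Targets of p53 counted 10 higher and 6 lower of 26 tested, with 6 and 7 without scaling factors, 6 and 5 without animal 2 and 6 and 6 without animal 3. TCA cycle genes counted 11 higher and 5 lower of 31 tested. These counts were 4 and 10 without scaling factors, 6 and 9 on log2(TPM + 1), 6 and 5 with the 6 libraries alone, 6 and 5 without the low-count filter, 7 and 5 and 7 and 6 on the runs alone, 5 and 4 without animal 2 and 6 and 5 without animal 3. Fatty acid oxidation genes counted 4 higher and 7 lower of 22 tested, with 3 and 14 without scaling factors, 3 and 4 without animal 2 and 2 and 5 without animal 3.

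Among histone and DNA modifiers, 0 of 34 tested were higher and 11 lower (20.0% and 18.6% over all genes). The DNA methyltransferase Dnmt3a was 71.8, 68.3 and 75.6 CPM against 97.2, 102.1 and 106 CPM (-0.50 ± 0.11, adjusted p = 0.0012 in edgeR) and 26.4, 28.9 and 37.7 CPM in vehicle Th17n libraries, so that DFMO Th17n cells stood between the 2. Tet1, an oxidase of methylcytosine (-1.42), and the histone demethylases Kdm5b (-0.77) and Kdm3b (-0.73) were lower. Ezh2, the polycomb methyltransferase, did not pass (-0.02).

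**Figure D5:**
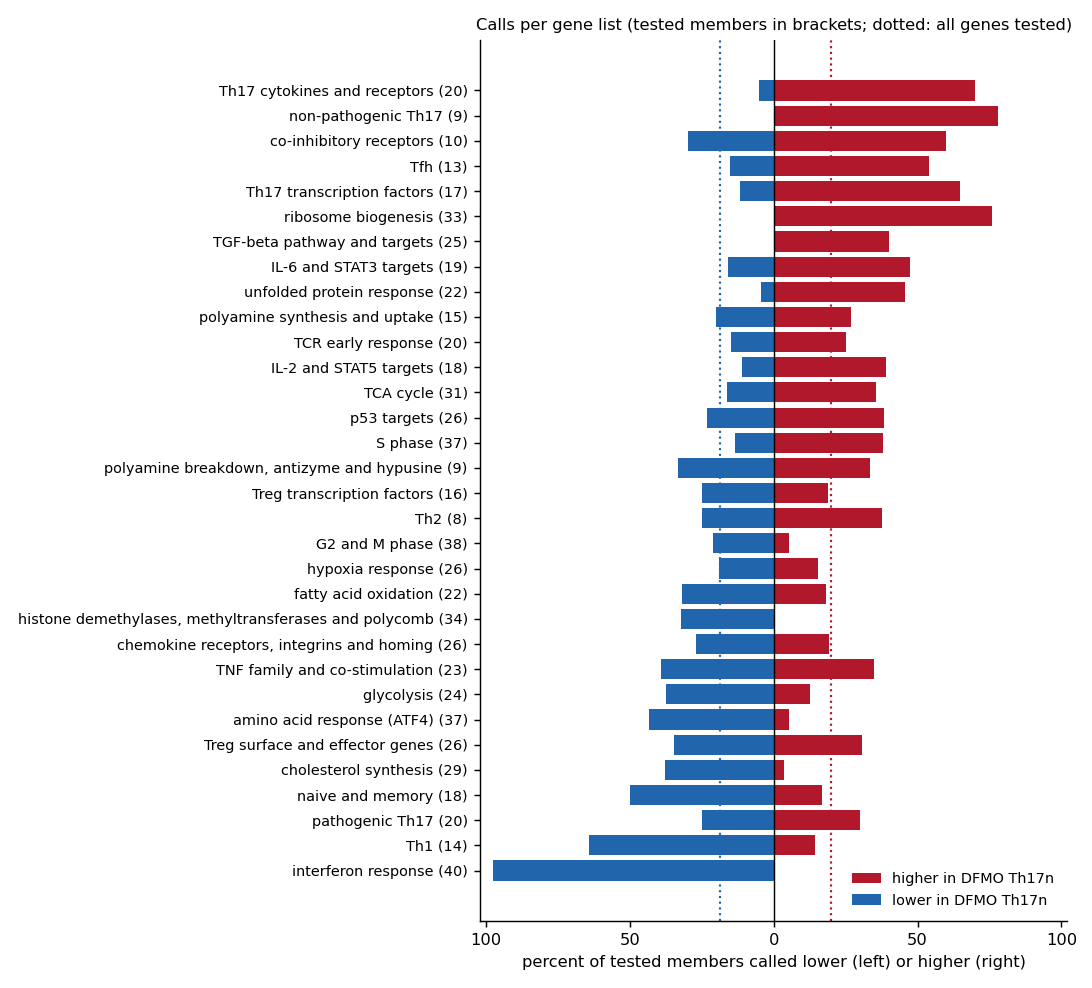
Percent of the tested members of 32 gene lists called lower (left, blue) or higher (right, red) in DFMO Th17n than in vehicle iTreg cells on the x axis, lists on the y axis ordered by median log2 fold change. Dotted lines are the same shares of all genes tested (20.0% higher and 18.6% lower). Interferon response stands alone at the lower end with 39 of 40 members lower, and Th17 cytokines and non-pathogenic Th17 genes stand at the other.

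Some genes that set vehicle Th17n cells apart from vehicle iTreg cells lay close to iTreg level with DFMO, by a rule of a log2 difference under 0.5 whose 95% interval stayed within -1 to 1. The 8 with the largest former gap were picked on these values, which are therefore a description. Ccl3, a chemokine, was 13.4, 12.5 and 27.5 CPM in DFMO Th17n, 12.9, 18.8 and 25.4 in vehicle iTreg and 0.122, 0.874 and 1.14 in vehicle Th17n libraries. The other 7 differed from vehicle iTreg cells by 0.25 for Pigr, the transporter of polymeric antibodies, -0.27 for Arhgef10, 0.18 for the lysosomal enzyme Gla, 0.29 for Smox, 0.44 for gelsolin (Gsn), -0.12 for Dennd3 and -0.44 for Trib1. In vehicle Th17n cells the same 7 had differed by -3.85, 3.21, 2.69, 2.64, 2.62, 2.56 and -2.48. With the animal in the fit Trib1 was called (adjusted p = 0.049 in edgeR).

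Other genes crossed iTreg level. Besides Aldoc and Tnfrsf9, the 6 picked for the largest opposite gaps were Selenbp1, a selenium-binding protein (-2.06 with DFMO and 3.06 with vehicle), Tg, thyroglobulin (-2.79 and 1.24), Gimap7, a GTPase of lymphocytes (-1.70 and 2.12), and Chst2, a sulfotransferase (3.04 and -1.16). Chst2 is the 1 of the 6 that was above iTreg level with DFMO and below it with vehicle, at 35.8, 35.9 and 43.8 CPM against 5.38, 4.51 and 4.21 in vehicle iTreg and 1.59, 1.75 and 2.803 in vehicle Th17n libraries.

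The gap to vehicle iTreg cells differed between the 2 Th17 lineages under DFMO for 1939 of 11526 genes (16.8%) in edgeR. Among genes called in the main comparison, 6 were picked for the largest called difference between DFMO Th17n and DFMO Th17p cells. The pick asked for a mean log2 CPM from 2 up over the 6 libraries compared. This leaves out genes high only in DFMO Th17p cells. All 6 stood higher in DFMO Th17n cells, a direction that this filter favours. Over all genes tested, 114 called genes had a log2 difference of at least 3 between these lineages and 96 one of -3 or below. Aqp3, an aquaporin, was 261, 273 and 295 CPM in DFMO Th17n, 0.223, 1.34 and 0.1703 in DFMO Th17p and 54.3, 22.8 and 14.5 in vehicle iTreg libraries. It was 3.19 from vehicle iTreg cells (3.94 without animal 1). Kynu, an enzyme of tryptophan breakdown, and Fbln2, fibulin 2, were below vehicle iTreg level in DFMO Th17n cells (-2.60 and -3.59), with 166 and 44 counts over the group against 1 and 0 in the 3 DFMO Th17p libraries. Gcnt2 (7.16), Ctla2b (2.64) and Tmem176a (1.91) were above both. Kynu was -3.21 without animal 2. Tmem176a lost its call against vehicle iTreg cells without animal 3 (adjusted p = 0.051 in edgeR).

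Markers of CD4 T cells were present in all libraries. Cd3e (174, 157 and 158 against 152, 142 and 140.4 CPM) and Cd4 (243, 254 and 289 against 384, 382 and 388 CPM) were at levels of this order in each, and the whole list summed to 3292 to 3381 against 3038 to 3152 CPM. Of its genes, 2 of 11 tested were higher, among them Cd5 (1.53), and 4 lower, among them Cd4 (-0.56) and Thy1 (-0.86). Markers of B cells summed to 5.42 to 9.78 against 15.4 to 18.4 CPM, of which Cd79b was lower (-2.77) and Ebf1 higher (4.36). CD8 T cell markers summed to 8.41 to 16.2 against 27.5 to 63.6 CPM with 4 of 6 tested lower (2 without animal 3), Cd8a at 0.346, 0.5298 and 0.453 against 2.69, 3.77 and 2.95 CPM and Gzmk at 0 in both groups. Eomes and Ccl5 are themselves members of this list, so that their decreases and its lower sum are not independent. The part of CD8 T cells in the lower Th1 and cytotoxic genes Eomes, Ccl5 and Gzmb was not tested. NK and innate lymphoid markers summed to 782 to 838 against 350.2 to 389 CPM, most of it Il2rb, with Ncr1, Klrb1c and Tyrobp at 0. Of 4 tested, 3 were higher and 0 lower (20.0% and 18.6% over all genes), with 2 higher without animal 2 or 3. Klre1 was among the higher ones and lost its call without animal 1, 2 or 3 (adjusted p = 0.072, 0.12 and 0.075 in edgeR). Myeloid markers summed to 131 to 143 against 174 to 228 CPM, mostly Cst3 and Cd74, with 7 of the list at 0 in both groups, Lyz2, Itgax and Ly6g among them. Cd74, which B cells and myeloid cells also express, was lower (-3.29). Erythroid and platelet markers summed to 0.725 to 1.38 against 0.861 to 3.31 CPM.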

How the data were processed

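RNA-seq was measured in 36 samples, 18 libraries (6 groups of 3 animals) sequenced in 2 runs each. The submitters' processing notes name Bowtie2, RSEM and the build GRCm38.p3; tool versions, annotation and strand setting were not given in the sources used here. In the data as received, the deposited tables hold the authors' estimated counts and the authors' TPM per gene symbol and sample, for 20817 genes; 12.2% of the estimated counts were not whole. Of the symbols, 20079 matched GENCODE M21, which gave coordinates. The 2 runs of a library differed by a chi-square per degree of freedom of 1.15 to 1.54 and were summed, rounded and counted as 1 replicate.

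All 18 libraries were fitted with edgeR 4.0.16 (R 4.3.3; TMM scaling, filterByExpr, robust quasi-likelihood fit, group means), leaving 11526 genes. Tests were two-sided with Benjamini-Hochberg adjustment and a threshold of 0.05, and the procedure was tested on simulated data. Levels are TMM-scaled CPM, with a prior count of 2 in log2 distances. Where a group had 0 counts the fold is a bound against 3 counts over the group, and for 1 to 3 counts it is a ratio with a 95% interval. Animal numbers come from the labels and each animal gave every group. Deviations from group means correlated with a median of 0.116 (lowest 0.113) between libraries of the same animal in the 2 groups compared. It was 0.121 over 45 such pairs of all groups and -0.063 over 90 pairs of different animals. The deviations of a group's 3 animals cancel by construction. The value for different animals therefore largely follows from that for the same animal. Alternatives were a replicate block, the 6 libraries alone, no scaling factors, DESeq2 1.42.0, no low-count filter, limma 3.58.1 on log2(TPM + 1), each run alone, another prior count and leaving out each animal.

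Genes named were the 12 largest called increases and decreases (a mean log2 CPM from 2 up, the same sign in each animal; predicted genes, antigen receptor segments and histones left out), 40 fixed lineage and polyamine genes, up to 4 members a list with the smallest p, and the 3 sets the text describes by their rules; other list members were picked after their values were seen. The members and the 38 lists (731 genes) were chosen with earlier results of these data known. A few genes are not reported here, though all counts and tests include them. A planned comparison of IL-17 proteins was not run. No column was left unmatched to a sample.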

Additional observations from a re-analysis of the deposited data

Results flagged for a closer look

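For 28 of 39 fixed lineage and polyamine genes, the gap to vehicle iTreg cells differed between DFMO Th17n and DFMO Th17p cells by edgeR's test of the difference, against 16.8% of all genes tested. Values in brackets are DFMO Th17n minus DFMO Th17p on the log2 scale, with 3 animals a group; both gaps rest on the same vehicle iTreg libraries.

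Among regulatory genes, DFMO Th17n cells were higher in Foxp3 (5.57), Lrrc32 (1.58), Ikzf4 (1.24), Ctla4 (1.12) and Il2ra (0.69) and lower in Gata3 (-3.44) and Ikzf2 (-1.14). Foxp3 lay -2.16 from vehicle iTreg cells in DFMO Th17n and -7.73 in DFMO Th17p cells (adjusted p of the difference = 7.4e-07 in edgeR). Gata3 lay -4.76 and -1.32 from them (adjusted p = 4.5e-08 in edgeR), so DFMO Th17p cells were nearer for this gene.

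Among Th17 genes, DFMO Th17n cells were higher in Il10 (5.36), Il9 (5.14), Maf (5.04), Ahr (3.91), Il17a (2.69), Il17f (2.03), Il6ra (1.51), Il21 (1.47), Rora (1.00) and Irf4 (0.59). They were lower in Il22 (-3.20), Il23r (-2.86), Il1r1 (-1.71), Hif1a (-0.76) and Batf (-0.45). The Th1 factor Tbx21 was lower too (-2.48). Il9 lay 5.84 from vehicle iTreg cells in DFMO Th17n and 0.71 in DFMO Th17p cells (adjusted p = 4.2e-08 in edgeR). Ahr and Tbx21 had gaps of opposite sign, with Ahr at 2.13 and -1.77 and Tbx21 at -0.96, not called, and 1.52.

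All 5 polyamine genes among them were lower in DFMO Th17n than in DFMO Th17p cells: Smox (-1.44), Odc1 (-0.72), Oaz2 (-0.59), Sms (-0.58) and Oaz1 (-0.39). Odc1 lay 0.23, not called, and 0.96 from vehicle iTreg cells (adjusted p of the difference = 0.00072 in edgeR). Smox lay 0.29, not called, and 1.73 from them (adjusted p = 0.00034 in edgeR).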

How the results depend on the processing

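Genes called higher numbered 1521 without scaling factors and 1921, 1452 and 1678 without animals 1, 2 and 3, against 2306, with 2960 lower calls without scaling factors against 2148 and 1544 to 1666 with an animal left out. With a replicate block they were 2460 higher and 2275 lower, with DESeq2 2208 and 2293, and with the 6 libraries alone 1945 and 2030. The mean distance of 1.08 was 1.0991 without scaling factors, 1.282 at a prior count of 0.5, 1.0056 and 1.0125 on either run alone, and 1.0759 to 1.0787 with an animal left out. The 184 genes chosen by rule had no direction reversed and 166 kept their call in every alternative that gave a value; other list members named in the text are not in these counts, and calls of theirs that changed stand beside their values. The replicate block added calls for Srm and Trib1 among the 184 and ended none; of the other members described, it added Icos. On log2(TPM + 1) 38 called values of these genes moved by over 1.5 times, since the added 1 shrinks folds of low genes by construction. With 3 animals a group, and 3 counts as the floor, absence of a low transcript cannot be shown; the cause of the other shifts was not tested.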
